A study of Rattus norvegicus with 62 samples.

Results

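The change of liver transcript levels over time was followed in rats initiated with the high dose of diethylnitrosamine (DEN, 30 mg/kg) and then promoted with phenobarbital (PB). The comparison sets 4 livers at 10w against 4 livers at 5w, chosen by their labels (10w DEN30/PB and 5w DEN30/PB), and makes up 8 of the 62 arrays of the series. Both livers of a pair came from the same male Crj:CD(SD)IGS rat, an outbred Sprague-Dawley stock: the 5w sample was the tissue removed at partial hepatectomy, and the 10w sample came from the remnant that had regrown by the terminal kill. The initiator was given for 1 or 2 weeks, a pause of 2 weeks followed, and the drinking water then held 500 ppm of PB for 6 weeks, with the hepatectomy 1 week after PB began. Age, the longer exposure to PB, the regrowth after surgery and the time since DEN all differ between the weeks and cannot be told apart. Groups sampled in the same way from other animals were DEN3/PB (DEN at 3 mg/kg, 5 rats), MC/PB (the methylcellulose vehicle followed by PB, 4 rats) and MC/water (vehicle followed by plain water, 4 rats); all of them had the hepatectomy as well.

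DEN is activated by cytochrome P450 in hepatocytes to a species that alkylates DNA. PB activates the nuclear receptor CAR, which induces drug-metabolising enzymes, and as a promoter it favours the outgrowth of initiated hepatocytes into enzyme-altered foci. In the rat such foci are classically recognised by the placental form of glutathione S-transferase (GSTP) and by gamma-glutamyl transpeptidase, and several aldo-keto reductases are raised in them. The questions put to the data were which genes moved between the weeks in all 4 rats, and whether they moved by a different amount than in rats without the high dose of DEN.

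Values are MAS5 signals, a linear measure of hybridisation brightness that can be compared between arrays for 1 probe set but not between probe sets. The 8 arrays had median signals between 109 and 124, and 51.7% to 54.4% of probe sets reached a signal of 100, the minimum used here. Along the first component of the residuals, which held 11.8% of the residual variation, the series split into 30 and 32 arrays (set 1 and set 2), a difference that the labels do not name. Rats 1 and 3 lay in set 1 and rats 2 and 4 in set 2 at both weeks, so a change within a rat was never a change between sets. Hepatocyte transcripts were plentiful at both weeks: the summed signal of 17 hepatocyte genes lay between 524162 and 655382 at 10w and between 606320 and 665382 at 5w, and 0 of the 17 passed the test described next, while 5 of them were lower at 10w in all 4 rats, as were 11.3% of all genes tested.

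Differences were tested with limma on log2(signal + 25) over 10910 genes, with the rat as a block and Benjamini-Hochberg adjustment over all genes. Between 10w and 5w, 233 genes passed an adjusted p of 0.05 in limma, 2.14% of those tested. Of these, 110 were higher at 10w (1.01%) and 123 were lower (1.13%), and 23 changed at least 2-fold, 14 upward and 9 downward. In 226 of the 233 all 4 rats moved the same way, but the 4 signals at 10w lay wholly above those at 5w in only 48 of the genes that rose and wholly below in 60 of those that fell; over all genes tested such separation was seen upward in 2.3% and downward in 2.24%. The fit tests the mean of the changes within rats, which by itself favours genes whose 4 rats moved alike. Over all genes tested, all 4 rats were higher at 10w in 12.5% and lower in 11.3%. The calls rest on that pairing: without the rat as a block limma called 0 genes (874 at an unadjusted p under 0.05), and with the rat as a random block it called 159, of which 131 were among the 233. Of the genes named below, Casp12, Gpx2, Gsta3, Il33, Lpl, Per2, Stac3, Stmn1 and Ugt2b7 lost their call for the change over time with the random block. The calls also rest on individual rats, since 135 genes passed without rat 1, 23 without rat 2, 23 without rat 3 and 194 without rat 4. Among the genes named below, Gstp1, Cidea, Cyp4a8, Gstm3 and Casp12 kept their call with any 1 rat left out, whereas Hbb, Prtg, Slc25a25, Ugt2b7 and Plk2 lost it with each. The calls of Cd14, Kdr, Nqo1, Chordc1, Igfbp3, Igfals, Lbp, A2m, Cd36 and Klf6, given further below, were not followed under these alternatives.

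Gstp1, the classical marker of rat preneoplastic foci, rose in all 4 rats. Its signal at 10w was 11907, 4174, 13557 and 2634 in rats 1 to 4, against 4016, 1565, 5807 and 1349 in the same rats at 5w. Rats 1 and 3 carried the highest levels at both weeks, so the weeks overlap, yet every rat was higher at 10w, by 1.56, 1.40, 1.22 and 0.95 on the log2 scale. The mean log2 level was 12.67 ± 1.15 at 10w and 11.39 ± 1.02 at 5w (SD, n = 4 each), and the estimated change was 1.28 ± 0.19 (log2, SE), 2.43-fold, with an adjusted p of 0.000418 in limma. The change was 1.39 in the rats of set 1 and 1.18 in those of set 2; without the block its adjusted p was 0.215.

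Akr1b8, an aldo-keto reductase of the family that reduces reactive aldehydes, had the largest rise of all genes that passed. Its signal was 1207, 1758, 1841 and 1036 at 10w, against 267, 442, 453 and 363 at 5w. All 10w livers lay above all 5w livers, and the change was 1.86 ± 0.35 (log2, SE; 3.62-fold; adjusted p = 0.00477 in limma). Ggt1, which encodes gamma-glutamyl transpeptidase, gave 502, 690.2, 564 and 313 at 10w and 153, 269, 171 and 182 at 5w. The weeks did not overlap here either, and the change was 1.29 ± 0.29 (2.44-fold, adjusted p = 0.0128 in limma).

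Gpx2, a glutathione peroxidase known mainly from gut epithelium, reached 176, 240.2, 814 and 129 at 10w, against 40.6, 25.6, 234 and 49.4 at 5w. Rat 3 was far above the others at both weeks, 3 of the 4 signals at 5w were under 100, and the estimated change of 1.69 ± 0.43 (adjusted p = 0.0344 in limma) therefore rests partly on dim spots; with the rat as a random block it did not pass (adjusted p = 0.199 in limma). Akr7a3, the aflatoxin aldehyde reductase, was already bright: its signal was 15576, 27094, 22104 and 13003 at 10w and 9323, 13423, 12530.2 and 10018 at 5w. All 4 rats rose, rat 4 by the least, and the change was 0.74 ± 0.17 (1.67-fold, adjusted p = 0.016 in limma).

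These 5 genes were the members that passed among 12 tested of a list of 15 markers of preneoplastic foci, a share of 41.7% upward against 1.01% of all genes, and 0 members fell. The list was compiled with earlier results of these data known, so its count is a description. The median change of the 12 was 0.36 on the log2 scale, against 0.00 over all genes tested, but it was -0.03, 1.02, 0.32 and 0.39 in rats 1 to 4, 0.14 without rat 2, 0.56 without rat 1, and 0.05 in set 1 against 0.67 in set 2. Gpc3 (glypican 3), Prom1, Cd44, H19, Igf2, Afp (alpha-fetoprotein) and Tgfa did not pass, with changes from -0.23 for Prom1 to 0.44 for Gpc3. Aldh3a1 and Akr1b10 stayed under the signal minimum. The count of 5 was 2 without rat 1, 1 without rat 2, 1 without rat 3 and 5 without rat 4. In bulk tissue, a larger share of cells that carry a transcript and more transcript per cell cannot be told apart.

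**Figure D1:**
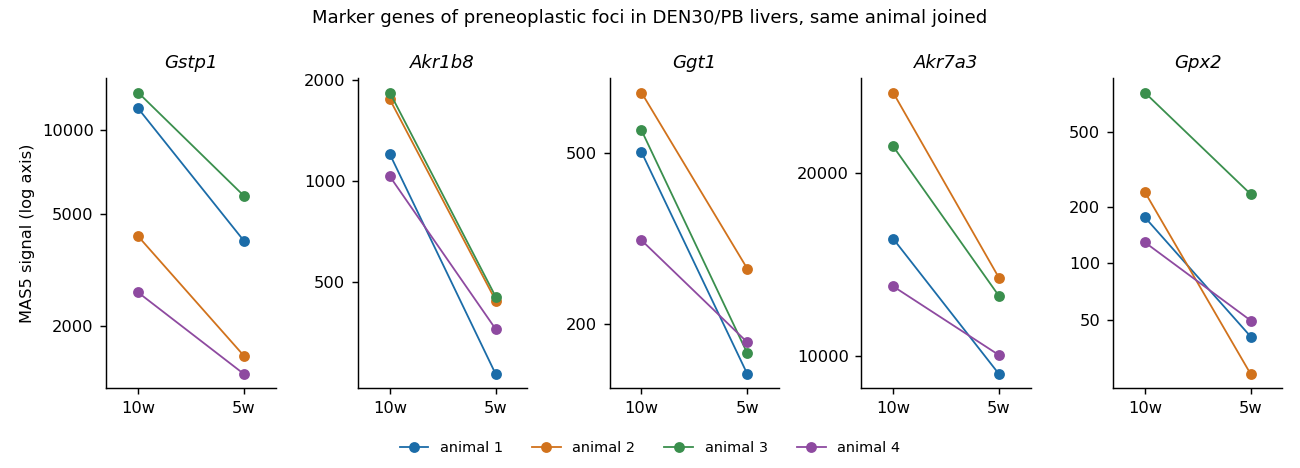
MAS5 signal (log axis, a scale of its own per gene) of the 5 markers of preneoplastic foci that passed the test, in DEN30/PB livers at 10w (left) and 5w (right); a line joins the 2 livers of 1 rat. All lines slope the same way, and rat 3 lies above the others for Gstp1 and Gpx2 at both weeks.

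Promoter windows are shown for the pair of markers in which a searched motif was found. They run from 250 bases before to 50 bases after the annotated gene start and come from RefSeq, build GRCr8, 5′ to 3′ on the gene's strand; all 5 markers had an entry. The search covered both strands for TGACNNNGC, the core of the antioxidant response element bound by NRF2 with small Maf proteins, and for TGACTCA, the element bound by AP-1; the letters of a match are in capitals. The Gstp1 window is chr1:210769656-210769955 on the minus strand and the Gpx2 window is chr6:101229984-101230283 on the minus strand.
Gstp1: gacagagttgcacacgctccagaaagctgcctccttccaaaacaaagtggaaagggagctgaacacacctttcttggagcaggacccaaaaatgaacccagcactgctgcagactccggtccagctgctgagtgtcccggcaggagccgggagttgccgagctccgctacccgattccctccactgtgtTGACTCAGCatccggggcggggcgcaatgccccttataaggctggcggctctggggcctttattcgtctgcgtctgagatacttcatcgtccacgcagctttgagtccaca
Gpx2: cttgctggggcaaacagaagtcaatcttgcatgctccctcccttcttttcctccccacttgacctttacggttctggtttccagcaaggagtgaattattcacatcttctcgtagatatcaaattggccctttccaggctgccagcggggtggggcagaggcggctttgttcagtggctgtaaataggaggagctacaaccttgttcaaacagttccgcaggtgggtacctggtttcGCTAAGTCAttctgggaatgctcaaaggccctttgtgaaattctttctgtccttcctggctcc
In Gstp1 the match starts 61 bases before the gene start, and its 9 letters TGACTCAGC hold both motifs at once. In Gpx2 the core of the antioxidant response element lies on the opposite strand, where GCTAAGTCA starts 13 bases before the gene start. Of 33365 rat promoter windows of the same length, 12.1% held TGACNNNGC and 4.64% held TGACTCA, so a match is common and describes the letters only. The windows of Akr1b8, Ggt1 and Akr7a3 hold neither string. The enhancer through which rat Gstp1 is best known to be switched on in foci lies further upstream, outside the window.

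The same markers behaved unequally in rats without the high dose. Gstp1 rose in DEN3/PB rats by 0.73 ± 0.17 (adjusted p = 0.004 in limma), where its signals had a lowest, median and highest value of 894, 2041 and 4357 at 10w and of 932, 1114 and 1479 at 5w. In MC/PB rats they were 759, 894 and 1728 at 10w and 658, 880.2 and 1121 at 5w (change 0.21 ± 0.19, adjusted p = 0.596 in limma). In MC/water rats they were 612, 895 and 1065 at 10w and 739.8, 1011 and 1389.9 at 5w (change -0.25 ± 0.19, adjusted p = 0.648 in limma). The DEN30/PB livers at 10w thus lay above all MC/PB and MC/water livers.

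The difference of the changes itself was tested as an interaction in limma. The change of Gstp1 in DEN30/PB exceeded that in MC/water by 1.53 ± 0.26 (adjusted p = 0.0242 in limma), and Gstp1 was the only 1 of 10910 genes (0.00917%) to pass that contrast, with 737 at an unadjusted p under 0.05. This call was lost without the rat as a block (0 genes), with rat 1, 2 or 3 of DEN30/PB left out (0 genes each) and with any 1 of the 4 MC/water rats left out (0 genes each), while without rat 4 of DEN30/PB 2 genes passed. Against MC/PB the difference for Gstp1 was 1.07 ± 0.26 and did not pass (adjusted p = 0.49 in limma), and against DEN3/PB it was 0.56 ± 0.25 (adjusted p = 0.9996 in limma).

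For Akr1b8 and Ggt1 no difference between the groups passed the threshold. Akr1b8 changed by 1.86 in DEN30/PB, 1.46 in DEN3/PB, 0.57 in MC/PB and 0.41 in MC/water (log2), where its median signals of 79.7 at 10w and 70.9 at 5w were under the minimum of 100. Ggt1 changed by 1.29, 0.83, 0.36 and 0.25 in the same order, while its median signals at 5w were 99.3 in MC/PB and 92.1 in MC/water, under the minimum. The estimates for Akr7a3 had the opposite order among the rats given PB, with 0.74 in DEN30/PB, 0.92 in DEN3/PB and 1.32 in MC/PB. In MC/water the estimate was 0.01. The difference between DEN30/PB and MC/PB was -0.59 ± 0.24 and did not pass (adjusted p = 0.999 in limma). The differences from DEN3/PB and MC/water did not pass either. In MC/PB, whose rats had received no DEN, Akr7a3 rose with an adjusted p of 1.55e-05 in limma. Gpx2 changed by 1.69 in DEN30/PB and 2.16 in DEN3/PB. Its DEN3/PB signals at 5w ran from 6.09 to 271 with a median of 109, so that change rests partly on dim spots too. In MC/water all its signals were under 100 and in MC/PB its medians were 47.4 at 10w and 32.7 at 5w, so no change is given there, although 1 MC/PB liver at 10w reached a signal of 1108, above all DEN30/PB livers.

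**Figure D2:**
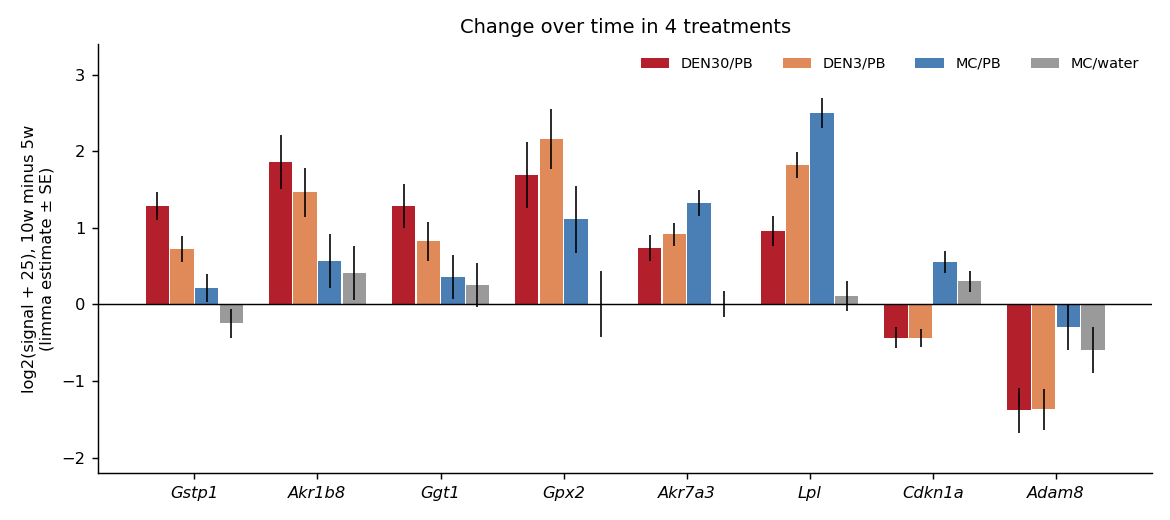
Change between 10w and 5w (limma estimate of log2(signal + 25), bars with SE) of 8 genes in DEN30/PB, DEN3/PB, MC/PB and MC/water rats (4, 5, 4 and 4 rats). Gstp1, Akr1b8 and Ggt1 step down from DEN30/PB to MC/water. Bars of Gpx2 in MC/water and of Adam8 in MC/PB and MC/water come from signals under 100. Median signals were also under 100 at both weeks for Gpx2 in MC/PB and Akr1b8 in MC/water. For Ggt1 the medians at 5w were 99.3 in MC/PB and 92.1 in MC/water. Akr7a3 and Lpl are highest in MC/PB, and Cdkn1a is below 0 in both DEN groups only.

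Lpl, lipoprotein lipase, was the only 1 of 10910 genes (0.00917%) whose change over time in DEN30/PB differed from that in MC/PB past the threshold, with 514 at an unadjusted p under 0.05. Its signal in DEN30/PB was 2761, 6543, 4632 and 1912 at 10w, against 1309.5, 3537, 1855 and 1276 at 5w, a rise of 0.96 ± 0.19 in all 4 rats (adjusted p = 0.00742 in limma). In MC/PB its lowest, median and highest signals were 2747, 5227 and 8439 at 10w and 474, 911 and 1479 at 5w, a rise of 2.50 ± 0.19 (adjusted p = 6.27e-10 in limma). The levels at 10w overlapped, and at 5w rats 2 and 3 of DEN30/PB lay above all MC/PB rats. The rise in DEN30/PB was smaller by 1.54 ± 0.27 (log2, SE; adjusted p = 0.0389 in limma). Without the block 0 genes passed this contrast, and 0 passed without rat 1, 2 or 4 of DEN30/PB or rat 1, 3 or 4 of MC/PB. Against DEN3/PB, 0 genes passed in limma, with 520 at an unadjusted p under 0.05, and 0 passed with the rat as a random block.

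Most genes called in DEN30/PB were also called in the same direction in DEN3/PB, and most in MC/PB. Overlap with the series' remaining groups given PB was not counted. Of the 233 genes, 182 were called in the same direction in DEN3/PB, which is 78.1% of the DEN30/PB calls and 15.7% of the 1158 calls in DEN3/PB (10.6% of the genes tested, 5.96% higher and 4.66% lower). In MC/PB 145 were called the same way, 62.2% of the DEN30/PB calls and 21.9% of the 662 in MC/PB (6.07%, 3.58% higher and 2.48% lower). MC/water shared 34, 14.6% of the DEN30/PB calls and 23.6% of the 144 in MC/water (1.32%, 0.651% higher and 0.669% lower). A further 43 were called in none of these 3 groups, which does not show that they differ from them.

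The 12 largest rises included Cyp4a8 and Cidea, which also rose in DEN3/PB and MC/PB. Cyp4a8, of the fatty acid hydroxylating P450 family, had signals of 1025, 3821, 2553 and 1345 at 10w, against 280.4, 1158, 596 and 421 at 5w. It rose in every rat by 1.79 ± 0.29 (adjusted p = 0.00157 in limma), and by 2.52 in DEN3/PB, 2.34 in MC/PB and 1.86 in MC/water. Cidea, a lipid droplet protein, gave 831, 1996, 1734 and 714 at 10w and 293, 767, 292 and 324 at 5w (1.58 ± 0.23, adjusted p = 0.000418 in limma). Rat 2 was already high at 5w, which made the weeks overlap.

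The small heat shock protein gene Cryab had signals of 453, 2006, 1384 and 437 at 10w, against 261, 205, 243 and 217 at 5w. The weeks did not overlap, rats 2 and 3 rose most, and the change was 1.80 ± 0.36 (adjusted p = 0.00742 in limma). It was 1.96 in DEN3/PB, 1.77 in MC/PB and 0.26 in MC/water. The difference between DEN30/PB and MC/water was 1.54 ± 0.52 and did not pass (adjusted p = 0.515 in limma). Ccn2, the connective tissue growth factor gene, gave 582, 1246, 593 and 654 at 10w and 349.8, 281, 161 and 317 at 5w (1.37 ± 0.27, adjusted p = 0.00583 in limma), again without overlap. Snx10, a sorting nexin, rose by 1.31 ± 0.22 and Casp12, a caspase of the endoplasmic reticulum, by 1.27 ± 0.22, both in all 4 rats, and both also rose in DEN3/PB and MC/PB. A dimmer probe set of Snx10 changed by 0.90.

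The conjugating enzymes Ugt2b7 and Gstm3 completed the 12 largest rises. Ugt2b7, a glucuronosyltransferase, rose by 1.25 ± 0.33 (adjusted p = 0.0375 in limma), with signals of 262, 653, 580.2 and 233 at 10w and 98.8, 214, 240.4 and 95.2 at 5w. Its signals were under 100 on all MC/water arrays and on all MC/PB arrays at 5w, so no change is given there. Gstm3, a mu-class glutathione S-transferase, rose by nearly the same amount in each rat: the 4 changes lay between 1.10 and 1.27 on the log2 scale although the signals at 10w ran from 954 in rat 4 to 3176 in rat 2, against 382 in rat 4 to 1458 in rat 3 at 5w.

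**Figure D3:**
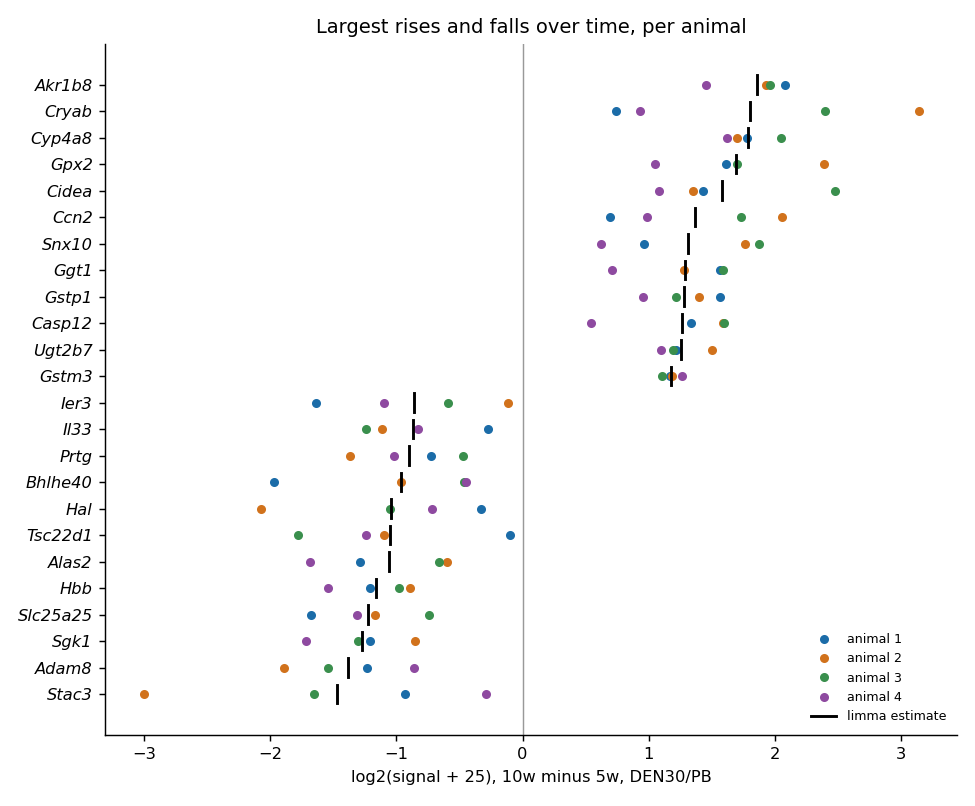
Change between 10w and 5w of log2(signal + 25) in each of the 4 DEN30/PB rats (points) and the limma estimate (bar) for the 12 largest rises and 12 largest falls in which all rats moved the same way. Gstm3 and Ugt2b7 show the narrowest spread, and Cryab and Stac3 the widest.

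Among the falls, Adam8, a membrane metalloprotease known from leucocytes, fell to 99.9, 45.1, 103 and 101 at 10w, against 269, 235, 348 and 203 at 5w. The weeks did not overlap, but 2 of the 4 signals at 10w were under 100. The change was -1.38 ± 0.29 (adjusted p = 0.0106 in limma), and with no offset it did not pass (adjusted p = 0.0964 in limma). In DEN3/PB it was -1.37; in MC/PB and MC/water all signals were under 100, with highest values of 60.8 and 44.2 at 10w and 54.6 and 49.5 at 5w, so no change is given there. Stac3, an adaptor protein known from the calcium release of skeletal muscle, had the largest fall of the genes named, -1.47 ± 0.40 (adjusted p = 0.0455 in limma). Its signals of 4801, 729.6, 3181 and 8094 at 10w, against 9201, 6013, 10052 and 9919.6 at 5w, show that rat 2 fell by far the most and rat 4 the least, and the call held under 3 of 16 alternatives.

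Sgk1, a kinase gene induced by serum and glucocorticoids, had signals of 1942, 899, 1288 and 1167 at 10w and 4519, 1643, 3214 and 3895 at 5w. All 4 rats fell, with an estimate of -1.27 ± 0.28 (adjusted p = 0.013 in limma), and Sgk1 passed in the same direction in DEN3/PB, MC/PB and MC/water. Slc25a25, a mitochondrial carrier for ATP-magnesium and phosphate, gave 888, 626, 901 and 655 at 10w, against 2901, 1437, 1524 and 1659 at 5w. The weeks did not overlap, and the change was -1.22 ± 0.31 (adjusted p = 0.0327 in limma). In MC/water the estimate for Slc25a25 was 0.67, and the difference of -1.90 ± 0.44 did not pass (adjusted p = 0.155 in limma).

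Hal, the histidine ammonia-lyase of periportal hepatocytes, fell by 1.04 ± 0.23 on the log2 scale, with rat 2 lowest at 10w (807, against 3483 at 5w). Tsc22d1, a transcriptional regulator, fell by 1.05 ± 0.19, although rat 1 barely moved (6932 at 10w, against 7428 at 5w); a pair of much dimmer probe sets changed by 0.07 and -0.40. Prtg, a membrane protein of the immunoglobulin superfamily, fell by 0.90 ± 0.23, Il33, the alarmin cytokine, by 0.87 ± 0.22, and Ier3, an immediate early gene, by 0.86 ± 0.21 on the same scale. Each of these 5 passed in limma and fell in all 4 rats. All 5 also passed in the same direction in DEN3/PB, Hal, Tsc22d1 and Ier3 also in MC/PB, and Tsc22d1 also in MC/water.

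A pair of red blood cell transcripts was lower at 10w. Hbb, beta globin, had signals of 9361, 7962, 8248 and 7366 at 10w, against 21735, 14830.5, 16299 and 21562 at 5w, without overlap (-1.16 ± 0.26, adjusted p = 0.0128 in limma). Its probe set is of a kind that can bind other globin transcripts. Alas2, the erythroid enzyme of haem synthesis, gave 233, 215, 287 and 124 at 10w and 606, 338, 468 and 454 at 5w (-1.06 ± 0.23, adjusted p = 0.0128 in limma). These were 2 of the 3 red cell genes tested, where 1.13% of all genes fell; without rat 2 the count was 1, and without rat 1, 3 or 4 it was 0. The third, Slc4a1, the red cell anion exchanger, was at 155, 86.2, 116 and 174 at 10w and 159.6, 151, 73.9 and 92.1 at 5w and did not pass (0.15 ± 0.25). With no filter on low signals the median of the list was -0.29 over 5 genes, against -1.06 over 3. The summed signal of the 3 lay between 7663 and 9749 at 10w and between 15320 and 22501 at 5w; their part in the other falls was not tested.

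Other cell type lists gave few calls. Of 16 macrophage genes, Cd14 alone rose (0.78 ± 0.14, adjusted p = 0.00329 in limma), where 1.01% of all genes rose. Of the same 16, 7 were higher in all 4 rats (12.5% of all genes were). The summed signal lay between 22189 and 34010 at 10w and between 19351 and 28850 at 5w, so the weeks overlap. Of 14 genes of sinusoidal endothelium, Kdr alone fell (-0.29 ± 0.08, adjusted p = 0.0492 in limma), where 1.13% of all genes fell. Of the same 14, 7 were lower in all 4 rats (11.3% of all genes were). The sum was 13182 to 14947 at 10w, against 15451 to 17950 at 5w. Among 33 matrix and stellate cell genes, 13 lymphocyte genes, 8 biliary and progenitor genes, 2 neutrophil genes and 3 genes of mesothelium, fat or pancreas, 0 passed. Lox, the collagen cross-linking oxidase, was at 349.6, 295, 141 and 518 at 10w and 702, 393, 401 and 625 at 5w. It was lower in all 4 rats but not past the threshold (-0.74 ± 0.24, adjusted p = 0.106 in limma), and a dimmer probe set gave -0.19. Lox fell past the threshold in DEN3/PB (-1.03, adjusted p = 0.00183 in limma) and in MC/water (-1.06, adjusted p = 0.0231 in limma). In MC/PB its change was 0.07 and did not pass.

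**Figure D4:**
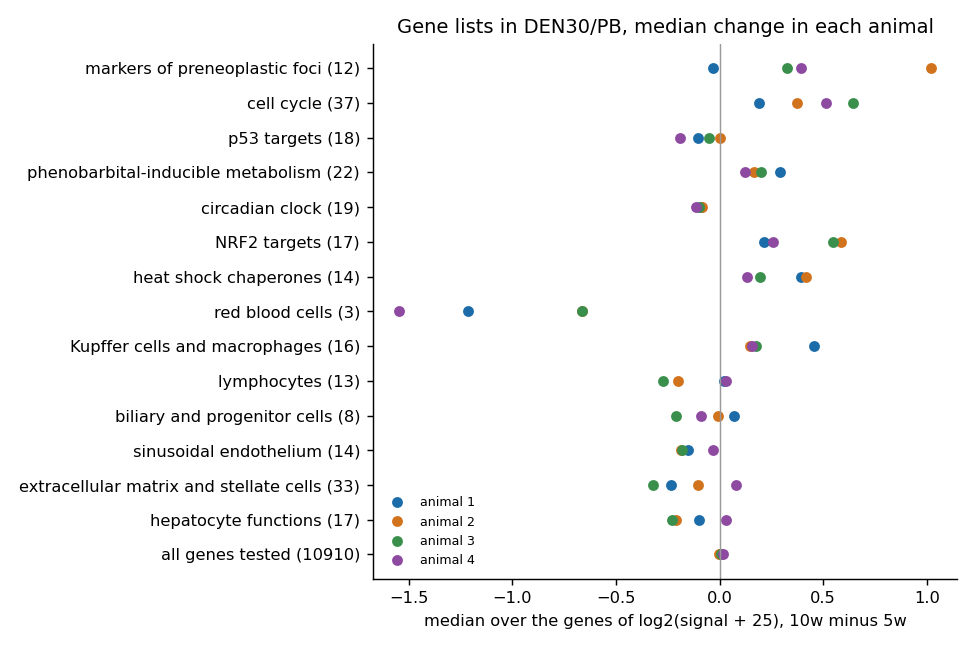
Median over the genes of a list of the change of log2(signal + 25) between 10w and 5w, one point per DEN30/PB rat, with the number of genes tested in brackets. The cell cycle, NRF2, heat shock chaperone, PB-inducible and macrophage lists lie right of 0 in all 4 rats. The red cell list of 3 genes, the clock list and the sinusoidal endothelium list lie left of 0 in all 4. The medians of all genes tested lie at or near 0.

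Cell cycle genes were mostly higher at 10w, although few passed singly. Of 37 tested, 1 passed, Stmn1, a regulator of microtubules (2.7%, against 1.01% of all genes), and 0 fell. Its signals were 1385, 3019, 2416 and 1238 at 10w and 1152, 1046, 1128 and 879 at 5w, without overlap, and it rose by 0.83 ± 0.22 (adjusted p = 0.037 in limma). The call was lost without rat 2 or rat 3, where 0 of the 37 genes passed. The median change of the 37 was 0.48 on the log2 scale, against 0.00 over all genes tested, and it was positive in each rat at 0.19, 0.37, 0.64 and 0.51. All 4 rats were higher at 10w for 23 of the 37 genes and lower for 0, where 12.5% and 11.3% of all genes did so.

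The values of members that did not pass follow. Mki67, the proliferation antigen, was at 174, 224, 284 and 248 at 10w and at 172, 146, 154 and 100.3 at 5w; the weeks did not overlap, though rat 1 hardly differed (0.62 ± 0.35, adjusted p = 0.417 in limma). Top2a, topoisomerase II alpha, was at 309, 248, 436 and 257 at 10w and at 245, 157, 157 and 114 at 5w (0.81 ± 0.27, adjusted p = 0.112 in limma). Racgap1 and Nusap1, which act in cytokinesis and the spindle, differed by 0.94 ± 0.28 and 0.65 ± 0.21, while 2 of the 4 Racgap1 signals at 5w were under 100 and a dimmer probe set of Racgap1 gave 0.31. The median of the list was -0.04 in DEN3/PB, -0.08 in MC/PB and 0.02 in MC/water. As a difference of changes the list's median was 0.43 against DEN3/PB, 0.55 against MC/PB and 0.35 against MC/water, but 0 members passed, with smallest adjusted p-values in limma of 0.908, 0.891 and 0.515. These 3 differences share the DEN30/PB rats.

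**Figure D5:**
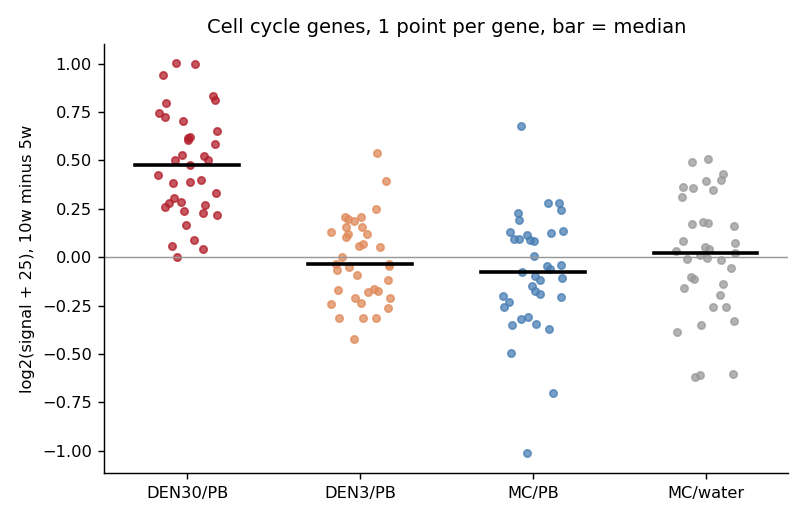
Change between 10w and 5w of log2(signal + 25) for each of 37 cell cycle genes (points) and their median (bar) in DEN30/PB, DEN3/PB, MC/PB and MC/water rats. The DEN30/PB median lies at 0.48 and the other medians between -0.08 and 0.02.

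Targets of p53, the transcription factor that answers DNA damage, gave a single call. Of 18 tested, 0 rose and 1 fell, Plk2, a polo-like kinase (5.56%, against 1.13% of all genes). Its signals were 1351, 1595, 1841 and 1467 at 10w and 3429, 1712, 2046 and 2667 at 5w; it fell in all 4 rats by 0.61 ± 0.16 on the log2 scale (adjusted p = 0.0381 in limma), and it also fell in DEN3/PB and MC/PB. Cdkn1a, the p21 inhibitor of cyclin-dependent kinases, had signals of 558, 752, 689.8 and 587 at 10w, against 747, 959, 977 and 850.5 at 5w. Each rat was lower at 10w, but the change of -0.44 ± 0.14 did not pass (adjusted p = 0.0874 in limma), and a dimmer probe set gave -0.07.

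In DEN3/PB Cdkn1a fell by 0.44 ± 0.12 on the log2 scale (adjusted p = 0.0189 in limma), whereas in MC/PB it rose by 0.55 ± 0.14 (adjusted p = 0.0125 in limma), with 0.30 ± 0.14 in MC/water. The difference between DEN30/PB and MC/PB was -0.99 ± 0.19 and stayed above the threshold (adjusted p = 0.0905 in limma). Of the other p53 targets, Mdm2, which degrades p53, differed by 0.15 ± 0.11 between the weeks, Ccng1 (cyclin G1) by -0.14 ± 0.14, Sesn2 by -0.32 ± 0.13 and Ei24 by -0.14 ± 0.06, none past the threshold. Pvt1, a long non-coding RNA gene, differed by -0.18 ± 0.24, and Mgmt, which repairs alkylated guanine, by 0.03 ± 0.11. The median over the 18 p53 targets was -0.07 on the log2 scale.

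Some genes inducible by PB were higher at 10w. Of 22 tested, 3 rose and 0 fell (13.6% upward, against 1.01% of all genes), with a median of 0.24; the count was 1 without rat 2, 1 without rat 3 and 2 with the rat as a random block. Besides Gstm3, these were Cyp2a1, a steroid-hydroxylating P450, and Gsta3, an alpha-class glutathione S-transferase. Cyp2a1 had signals of 13911, 14060.2, 14460.3 and 7691 at 10w and 7750.0, 6443, 8099 and 4975 at 5w, with rat 4 low at both weeks (0.86 ± 0.17, adjusted p = 0.00583 in limma). Gsta3 rose by 0.91 ± 0.23 (adjusted p = 0.0308 in limma). Alas1, which starts haem synthesis, differed by 0.48 ± 0.14 and did not pass (adjusted p = 0.0579 in limma). The same list held 9 members that rose in MC/PB and 7 in DEN3/PB, with medians of 0.36 and 0.21. Cyp2e1, the ethanol-inducible P450 that activates DEN, was level at 43236, 36815, 29834 and 37802 at 10w and 41076, 38064, 30232 and 35799.7 at 5w (0.02 ± 0.08).

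Clock genes were measured because the time of day of sampling is not given in the labels. Of 19 tested, 0 rose and 3 fell (15.8%, against 1.13% of all genes). Hlf, a transcription factor of the clock output, had signals of 615, 567, 462 and 728 at 10w and 823, 807, 763 and 1162 at 5w, without overlap (-0.56 ± 0.11, adjusted p = 0.00761 in limma); for 2 other probe sets of Hlf the change was -0.29 and -0.24 and did not pass. Bhlhe40, a clock repressor, fell by 0.96 ± 0.23, and Per2, a core repressor, by 0.71 ± 0.17 on the log2 scale, each in all 4 rats, and Hlf, Bhlhe40 and Per2 also fell in DEN3/PB and MC/PB. Among genes with the widest daily swing, Bmal1 differed by -0.05 ± 0.11, Nr1d1 by 0.10 ± 0.28, Per1 by 0.70 ± 0.43, Per3 by 0.27 ± 0.32 and Dbp by -0.20 ± 0.36, none past the threshold. Dbp and Per3 were under a signal of 100 on all 8 arrays, and Per1 on all 4 at 5w and 2 at 10w. Without rat 2 or rat 3, 0 of the 19 clock genes passed.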

How the data were processed

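Liver RNA from 31 rats at 2 weeks was hybridised to 62 arrays. The authors deposited signal intensities on a linear scale, and the submitters' processing notes name MAS5 5.0; their trimmed means lay at 500.24 to 500.26 on the 8 arrays compared, so no further scaling was applied. Of 31099 probe sets, 20826 had 1 gene symbol in the platform annotation. An offset of 25 was added before log2; a probe set needed a signal of 100 on at least 4 arrays, and the brightest probe set stood for its gene, leaving 10910 genes. limma 3.58.1 (R 4.3.3) was fitted on all 62 arrays with the rat as a fixed block and a 10w effect per treatment (eBayes with trend, two-sided, 24 residual degrees of freedom); differences between treatments were interaction contrasts, and the series' remaining treatments entered only the shared estimate of spread. Steps were tested on simulated data. The number of arrays limits the precision.

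The pairing comes from the labels' study design, which states that both livers came from the same animal; same-numbered arrays correlated at 0.26 to 0.39 in their residuals, and differently numbered arrays of 1 set at 0.02 to 0.04. Genes named are the 12 largest rises and 12 largest falls with all rats moving one way, those past an interaction contrast, up to 4 members of each list described, and a fixed set of markers; lists described are 5 main ones and any with 3 members called. The members and lists were chosen with earlier results of these data known. Alternatives were the block, offset, filter, normalization, probe set rule, eBayes trend, arrays fitted, array sets and each rat left out. One listed gene is not reported here.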

Additional observations from a re-analysis of the deposited data

Results flagged for a closer look

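Of 104 groups of 4 livers (52 named genes at both weeks), 6 held 1 liver far from the other 3 by Dixon's test, where chance flags about 1 in 20 groups. Rat 2 gave 5 of them. At 10w its Adam8 signal was 45.1, against 99.9 for the nearest other liver, and its Ccn2 signal was 1246, against 654. At 5w it had a Cidea signal of 767, against 324, a Snx10 signal of 364, against 156, and a Dbp signal of 54.9, against 81.7. Rat 4 at 10w had a Cyp2a1 signal of 7691, against 13911. Without rat 2, Adam8 changed by -1.21 and Ccn2 by 1.14 on the log2 scale and neither passed, while Cidea (1.66) and Snx10 (1.16) did; without rat 4, Cyp2a1 changed by 0.93 and passed.

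The change over time differed between treatments past the threshold in limma for a pair of genes. For Gstp1 the change in DEN30/PB minus that in MC/water was 1.53 (log2), and for Lpl the change in DEN30/PB minus that in MC/PB was -1.54.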

How the results depend on the processing

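Among 54 named results, each that passed kept its direction under the alternatives tried; Mgmt, Nr1d1 and Per3, which did not pass, changed sign near 0. The count of 233 genes stayed within 1.5 times with no offset, without the filter, with the filter on the 8 arrays, with quantile normalization, with the mean over probe sets, with all probe sets and with only the groups compared; it was 147 without the eBayes trend, 0 with no replicate block, 1 within array set 1, 2 within set 2, and 23 to 194 with 1 rat left out. The count of 23 genes changed at least 2-fold was 0 with no replicate block, 35 over all probe sets, 0 and 1 within the sets, and 7 to 36 with 1 rat left out.

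The single gene of the contrast with MC/PB was lost (0 genes) with no replicate block, a random block, no filter, quantile normalization, no trend, all probe sets and within either set; 4 genes passed with only the groups compared, and 0 to 1 with 1 rat left out. The single gene of the contrast with MC/water was lost (0 genes) with no replicate block, a random block, no trend and within either set; 4 passed with no offset, 2 with quantile normalization, 4 with only the groups compared, and 0 to 2 with 1 rat left out. The contrast with DEN3/PB gave 0 throughout. Within a set 2 rats remain, which limits what can pass; other causes were not tested. Without the block, 34 of the 54 named results lost their call, and 20 kept their side of the threshold.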

Other observations

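Lists outside the 5 described above held further members that moved over time in DEN30/PB rats; these genes were picked after their values were seen. Of 17 targets of NRF2, the regulator of antioxidant genes, 2 rose, where 1.01% of all genes did: Akr7a3 and Nqo1, a quinone reductase, with signals of 9813, 7791, 11963 and 6705 at 10w and 6650.0, 4841, 8138 and 6282 at 5w (0.47 ± 0.10, adjusted p = 0.0128 in limma). The median of the 17 was 0.36 on the log2 scale and positive in each rat, against 0.37 in DEN3/PB, 0.40 in MC/PB and -0.03 in MC/water. Of 14 heat shock chaperones 2 rose, Cryab and Chordc1, a partner of HSP90 (0.67 ± 0.12, adjusted p = 0.0044 in limma), again where 1.01% of all genes rose, and 10 were higher at 10w in all 4 rats, where 12.5% of all genes were.

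Of 14 genes of the growth hormone and IGF axis 2 fell, where 1.13% of all genes did. Igfbp3, a carrier of insulin-like growth factor, had signals of 2024, 2154, 1289 and 2037 at 10w and 3285, 3264, 2468 and 3421 at 5w (-0.74 ± 0.12, adjusted p = 0.00235 in limma), and Igfals, the acid-labile subunit of the same serum complex, changed by -0.50 ± 0.11 (adjusted p = 0.0107 in limma); neither overlapped between the weeks. Of 18 acute-phase genes, Lbp rose (0.77 ± 0.18) and A2m fell (-0.82 ± 0.22), where 1.01% of all genes rose and 1.13% fell. The fatty acid transporter Cd36 had signals of 895, 830.5, 579.6 and 499 at 10w and 339, 334, 258 and 450.4 at 5w, without overlap (0.96 ± 0.18, adjusted p = 0.00538 in limma). It was the single call among 23 genes of fatty acid oxidation, where 1.01% of all genes rose, and the median of the 23 was -0.01. Klf6, an immediate early transcription factor, rose by 0.97 ± 0.24 while Ier3 fell, 2 of 15 immediate early genes, against the same shares of all genes. In the lists of cholesterol synthesis, fatty acid synthesis, bile acids, DNA repair and the amino acid response, 0 genes passed.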
